A study of Mus musculus with 10 samples.

Results

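The genes described here are 10 that mark tuft cells: Pou2f3, Gfi1b, Gnat3, Trpm5, Dclk1, Avil, Alox5ap, Ptgs1, Hpgds and Il25. They were chosen by name, and every array probe whose annotated symbol was one of these names was taken in all 10 ileum samples. Of the 10 genes, 9 had a probe, with 12 probes in all, among 16593 genes named on the array. Ptgs1 had no probe under that symbol, and its expression was not analysed here. A probe counted as measured where its detection p-value, which compares its brightness with that of the array's negative control beads, was under 0.05 on at least 5 of the 10 arrays. By that rule 5 genes were measured with 1 probe each: Dclk1, Trpm5, Alox5ap, Hpgds and Avil.

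The study compared gene expression in the ileum, the last section of the small intestine, between mice lacking interferon-gamma and wild type mice, on Illumina bead arrays. There were 5 IFNgKO samples (IFNgKO_645 to IFNgKO_649) and 5 WT samples (WT_640 to WT_644). Both groups were male C57Bl/6 mice, 8 weeks old, kept free of specific pathogens on standard chow, and neither was treated; the knockout allele is not described in the labels. The arrays were run in 2 sets: set 1 held IFNgKO_645 and IFNgKO_646 with WT_640 and WT_641, and set 2 held IFNgKO_647, IFNgKO_648 and IFNgKO_649 with WT_642, WT_643 and WT_644. The labels leave unsaid whether every sample came from its own mouse, and p-values here reflect only the scatter among samples. The ileal marker Fabp6, a bile acid-binding protein, was detected on all 10 arrays, while the ileal bile acid transporter Slc10a2 was detected on 0 of 10. Neither probe of Ifng itself was detected in any sample of either genotype (lowest detection p 0.144 in IFNgKO and 0.0977 in WT), so the arrays give no check of the genotype labels. Arrays detected between 10618 probes (WT_641) and 12975 probes (IFNgKO_649). WT_641 also had the lowest mean correlation with the other arrays, 0.949, against 0.965 to 0.975 for the rest.

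Tuft cells are rare chemosensory cells scattered through the gut epithelium. They sense luminal parasites and microbial metabolites through a signalling cascade like that of taste cells, in which G proteins and phospholipase C release calcium and open the channel Trpm5. They then release the cytokine Il25 and lipid mediators, which act on innate lymphoid cells; these make the cytokine Il13, and the stem cell zone answers by making more tuft and goblet cells. Interferon-gamma belongs to the opposing type 1 arm of immunity.

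The transcription factor Pou2f3, on which tuft cells depend, binds the octamer motif. This motif and its core were searched in the RefSeq promoters (build GRCm38.p6) of the genes, from 250 bases before to 50 bases after the start site. Entries were found for 7 of the 10 genes, with 8 promoters: Gfi1b, Ptgs1, Gnat3, Hpgds, Trpm5, Avil and 2 of Dclk1. The octamer ATGCAAAT was in 1 of the 8, against 1.74% of all 32851 promoters, counting both strands. Its core ATGCAAA, which lies inside it, was in 2 of the 8, against 4.63% of all promoters. The 2 promoters that hold a match are printed 5′ to 3′ on the strand of the gene, with the matched letters in capitals. Hpgds (chr6:65144681-65144980, minus strand) holds the octamer, starting 174 bases before the start site. Avil (chr10:127000459-127000758, plus strand) holds the core 115 bases before the start site on the reverse strand and 15 bases before it on the forward strand.
Hpgds: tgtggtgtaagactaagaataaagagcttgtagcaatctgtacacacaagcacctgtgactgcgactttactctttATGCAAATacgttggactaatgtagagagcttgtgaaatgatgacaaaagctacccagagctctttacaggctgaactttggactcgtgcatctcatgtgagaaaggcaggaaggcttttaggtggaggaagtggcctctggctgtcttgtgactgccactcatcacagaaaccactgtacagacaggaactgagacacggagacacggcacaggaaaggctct
Avil: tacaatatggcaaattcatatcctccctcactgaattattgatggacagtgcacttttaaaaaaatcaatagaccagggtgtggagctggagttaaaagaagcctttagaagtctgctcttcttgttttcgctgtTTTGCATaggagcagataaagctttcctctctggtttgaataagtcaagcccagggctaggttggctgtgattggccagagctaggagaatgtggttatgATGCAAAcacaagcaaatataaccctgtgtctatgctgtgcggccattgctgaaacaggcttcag
These are matches of letters in a 300-base window, not shown binding sites. No match was in either Dclk1 promoter or in those of Gfi1b, Trpm5, Gnat3 and Ptgs1.

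The transcription factors Pou2f3 and Gfi1b and the cytokine Il25 were at the level of background in both genotypes. Pou2f3 was detected on 0 of 10 arrays, with a raw intensity of 68.1 to 84.9 in IFNgKO and 77.1 to 84.8 in WT, and its lowest detection p was 0.506 in IFNgKO and 0.368 in WT. Gfi1b, a transcriptional repressor that also acts in erythroid cells and megakaryocytes, was detected on 0 of 10 arrays (raw 84.8 to 100 in IFNgKO and 86.1 to 102.3 in WT). Il25, the cytokine by which tuft cells alert innate lymphoid cells, was likewise detected on 0 of 10 arrays (raw 74.3 to 87.3 in IFNgKO and 72.6 to 95.0 in WT). For these 3 genes the signal in whole ileum was not above background in either genotype, and a difference between genotypes was not detectable.

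Gnat3, the G protein subunit gustducin of taste signalling, lay just outside the rule. One of its 2 probes, ILMN_1258192, was detected on 2 arrays (IFNgKO_648, detection p 0.0351, and WT_644, detection p 0.0439), with raw intensities of 93.6 to 120.3 in IFNgKO and 99.2 to 111.8 in WT. Its other probe, ILMN_3026658, passed on 1 array, WT_640. Hpgds lay just inside the rule: its probe was detected on 5 of 10 arrays, 4 IFNgKO and 1 WT, with raw intensities of 93.9 to 131.3 in IFNgKO and 106.2 to 119.6 in WT.

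Dclk1, Trpm5, Alox5ap and Avil were detected on all 10 arrays, although Trpm5 only just: its highest detection p was 0.0489, in WT_641. The measured probe of Trpm5, ILMN_2859192, read 133.4 to 175.5 in IFNgKO and 124.2 to 161.2 in WT. Its second probe, ILMN_2419687, was detected on 0 of 10 arrays, and so was the second probe of Hpgds, ILMN_1225141. For these 2 genes the probes of one gene therefore gave different answers on whether the gene was present, and only the detected probe was used. Fitted without the detection filter, the probes that were not measured differed between IFNgKO and WT by -0.16 (Gnat3, ILMN_3026658) to 0.07 (Trpm5, ILMN_2419687), with adjusted p-values of 0.611 to 0.973 by limma.

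**Figure D1:**
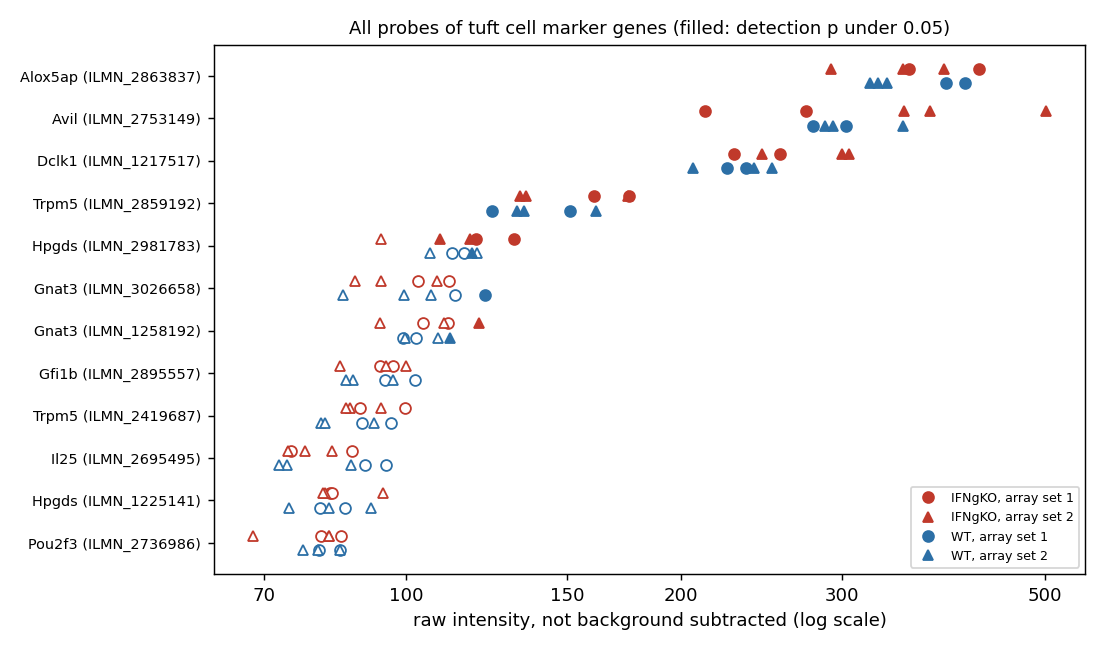
Raw intensity (log scale, not background subtracted) of all 12 probes of the tuft cell marker genes, 1 row per probe, with IFNgKO samples in red above WT samples in blue, circles for array set 1 and triangles for set 2. Filled points have a detection p under 0.05. Points are to be compared within a row only. The rows of Alox5ap, Avil, Dclk1 and 1 Trpm5 probe are filled throughout, that of 1 Hpgds probe in part, and those of Gfi1b, Il25 and Pou2f3 are empty.

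Lack of interferon-gamma came with no detected change in any of the 5 measured genes. Levels are log2 intensities after background correction and quantile normalisation, and each difference is IFNgKO minus WT from a limma fit with array set as a term, with Benjamini-Hochberg adjustment over all 12039 measured probes. Across the whole array 2 probes passed an adjusted p of 0.05, which is 0.0166% of those tested. Of the 5 genes, 0 passed, and 0 had an unadjusted p under 0.05, where 12.2% of all probes did (5.86% higher and 6.38% lower in IFNgKO). The fitted difference was above 0 for Trpm5 and below 0 for the other 4, with a median of -0.07. Under median scaling Dclk1 (0.22) and Avil (0.07) were above 0 too, but that scaling put the median of all probes at 0.19. The samples of the genotypes overlapped for all 5 genes, whereas 1.34% of all probes had groups that did not overlap. In whole tissue, fewer tuft cells and less RNA per tuft cell cannot be told apart.

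Dclk1, a microtubule-associated kinase and the most used marker of gut tuft cells, had log2 levels of 7.41, 7.63, 7.48, 7.18 and 7.69 in IFNgKO_645 to IFNgKO_649, and of 7.44, 7.89, 7.22, 7.32 and 7.61 in WT_640 to WT_644. The highest sample was WT_641 and the lowest IFNgKO_648, and the genotypes covered much the same range. The difference was -0.02 ± 0.15 (SE, n = 5 each; 95% interval -0.34 to 0.31, adjusted p = 0.977 by limma). On the linear scale that interval runs from 0.789-fold to 1.24-fold.

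Avil encodes advillin, an actin-bundling protein of the tuft cell's long microvilli. It measured 7.25, 7.76, 8.35, 7.98 and 7.99 in IFNgKO_645 to IFNgKO_649, and 8.03, 8.21, 7.86, 7.73 and 8.28 in WT_640 to WT_644. IFNgKO held both the highest value (IFNgKO_647) and the lowest (IFNgKO_645), and its SD was 0.40 against 0.23 in WT. The difference over both sets was -0.16 ± 0.18 (SE; 95% interval -0.55 to 0.24, adjusted p = 0.759 by limma). It was -0.61 in set 1, where both IFNgKO samples lay below both WT samples, and 0.15 in set 2. The test of that difference between sets gave 0.76 ± 0.33 (SE), with an unadjusted p of 0.0377 and an adjusted p of 0.999 by limma. Across the array 0 probes passed that test after adjustment and 3.17% had an unadjusted p under 0.05.

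Trpm5 is the cation channel at the end of the taste-like cascade. Its levels were 6.59, 6.81, 6.38, 5.82 and 6.03 in IFNgKO_645 to IFNgKO_649, and 6.44, 5.93, 6.28, 5.81 and 6.54 in WT_640 to WT_644. The values intermixed, with IFNgKO_646 highest and WT_643 lowest. The difference was 0.12 ± 0.19 (SE; 95% interval -0.29 to 0.54, adjusted p = 0.820 by limma), made up of 0.51 in set 1 and -0.14 in set 2.

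Alox5ap, the protein that presents arachidonic acid to 5-lipoxygenase in leukotriene synthesis, had the largest of the 5 differences with quantile normalised levels. It measured 8.25, 8.56, 7.72, 7.51 and 8.17 in IFNgKO_645 to IFNgKO_649, and 8.49, 8.89, 7.78, 7.96 and 8.47 in WT_640 to WT_644. The WT mean was higher in each array set, by much the same amount, since IFNgKO minus WT was -0.29 in set 1 and -0.27 in set 2. Over both sets the difference was -0.28 ± 0.17 (SE; 95% interval -0.65 to 0.10), with an unadjusted p of 0.137 and an adjusted p of 0.544 by limma. The interval covers 0.637-fold to 1.07-fold. Under median scaling the Alox5ap difference was only -0.05, against 0.25 for Trpm5 and 0.22 for Dclk1, with a median of 0.19 over all probes. Alox5ap was also the only one of the 5 genes whose level differed between the array sets after adjustment, as 19.2% of all probes did: it was lower in set 2 by -0.61 ± 0.18 (SE, adjusted p = 0.0289 by limma), with means of 7.94 in set 2 and 8.55 in set 1.

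Hpgds, the haematopoietic prostaglandin D synthase, measured 5.62, 5.99, 5.38, 4.89 and 5.48 in IFNgKO_645 to IFNgKO_649, and 5.36, 5.65, 5.13, 5.49 and 6.08 in WT_640 to WT_644. WT_644 was the highest and IFNgKO_648 the lowest of the 10. The difference was -0.07 ± 0.20 (SE; 95% interval -0.51 to 0.37, adjusted p = 0.912 by limma). On 5 of the 10 arrays the probe was not told apart from control beads.

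**Figure D2:**
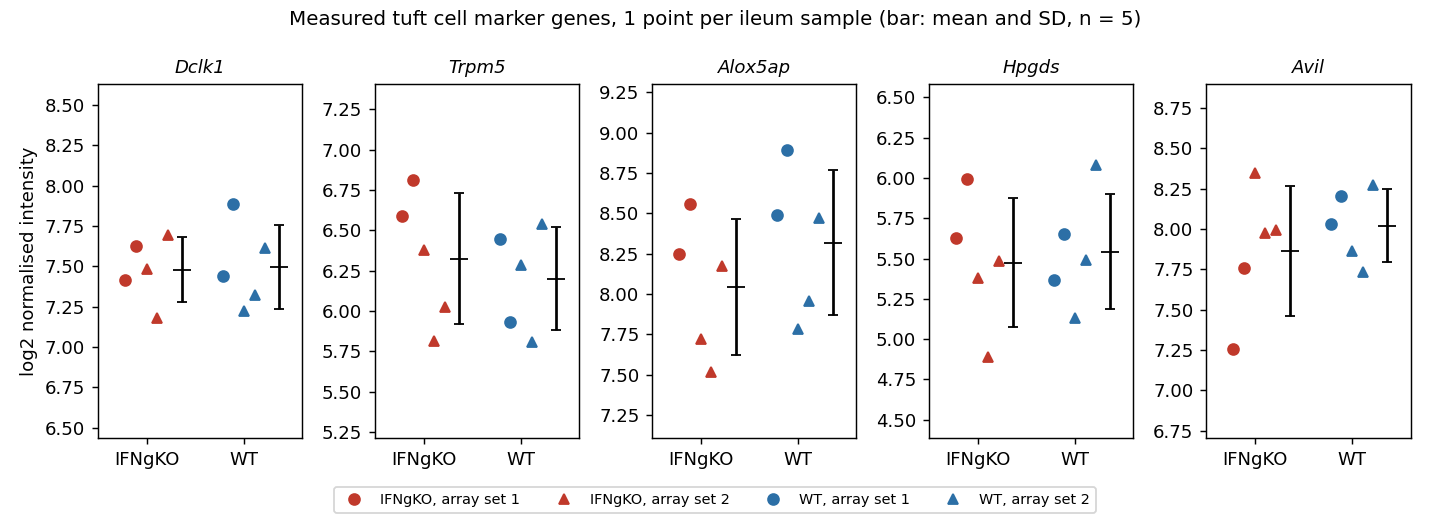
Log2 normalised intensity of the 5 measured tuft cell marker genes, 1 panel per gene with its own axis of equal span, with IFNgKO left of WT, circles for array set 1 and triangles for set 2. Bars give mean and SD (n = 5). The genotypes overlap in every panel, and in the Alox5ap panel the set 1 samples of each genotype lie above the set 2 samples of that genotype.

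Among the pairs of measured genes, the highest correlations over the 10 samples were those of Dclk1, Alox5ap and Hpgds with each other, and no pair passed adjustment over all pairs. With each level centred on the mean of its array set, Dclk1 and Alox5ap had the highest value (Pearson r = 0.831, exact permutation p = 0.00741; Spearman rho = 0.806, exact permutation p = 0.0147, both two-sided, permuted within array set). Alox5ap and Hpgds had r = 0.749 (exact permutation p = 0.0262; rho = 0.770, exact permutation p = 0.0213), and Dclk1 and Hpgds had r = 0.627 (exact permutation p = 0.0657; rho = 0.685, exact permutation p = 0.0507). After Benjamini-Hochberg adjustment over the 10 pairs of measured genes the exact permutation p was 0.0741, 0.131 and 0.219 for these 3 pairs, so 0 of 10 pairs passed. Trpm5 had r = 0.505 with Hpgds (exact permutation p = 0.151, adjusted 0.264; rho = 0.333), and its r was -0.03 with Dclk1, 0.03 with Alox5ap and -0.04 with Avil (adjusted exact permutation p = 0.933 for each). Avil had r = 0.577 with Dclk1 and 0.481 with Alox5ap (adjusted exact permutation p = 0.264 for both), and r = 0.149 with Hpgds (adjusted exact permutation p = 0.933).

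The samples behind these values can be named. Relative to its set, WT_644 was high in all 5 genes, by 0.20 for Dclk1, 0.40 for Trpm5, 0.53 for Alox5ap, 0.67 for Hpgds and 0.24 for Avil. IFNgKO_648 was low in all 5, by -0.24 for Dclk1, -0.32 for Trpm5, -0.42 for Alox5ap, -0.52 for Hpgds and -0.05 for Avil. This pattern did not hold for all 5 genes under median scaling. WT_644 then read below IFNgKO_648 for Dclk1 (7.30 against 7.34) and Avil (7.95 against 8.14). It stayed above IFNgKO_648 for Trpm5 (6.30 against 5.88), Alox5ap (8.15 against 7.69) and Hpgds (5.93 against 4.82). WT_644 had the lowest median raw intensity of the 10 arrays, 93.0, and detected 10818 probes, against 12146 in IFNgKO_648. The part of array brightness in the pattern was not tested. WT_641 broke ranks: it was high for Dclk1 (0.29), Alox5ap (0.35) and Avil (0.39) and lowest of all for Trpm5 (-0.51). Without WT_641, Dclk1 and Trpm5 had r = 0.498.

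With the 2 samples farthest from the median of the first gene left out, Dclk1 and Alox5ap kept r = 0.778 (exact permutation p = 0.0458, adjusted 0.153) and Dclk1 and Hpgds had r = 0.898 (exact permutation p = 0.00972, adjusted 0.0972). For these Dclk1 pairs WT_641 and IFNgKO_649 were left out, while WT_644 and IFNgKO_648 stayed in. For Alox5ap and Hpgds it was WT_644 and IFNgKO_648 that were left out, and r fell to 0.301 (exact permutation p = 0.542). Different samples were dropped, so these values do not compare the pairs. Without WT_644 alone r was 0.527 for Alox5ap and Hpgds, 0.845 for Dclk1 and Alox5ap and 0.576 for Dclk1 and Hpgds. In array set 2 alone (6 samples) r was 0.787 for Dclk1 and Alox5ap, 0.755 for Dclk1 and Hpgds, and 0.935 for Alox5ap and Hpgds (exact permutation p = 0.0681, 0.0708 and 0.00833, with an adjusted p of 0.0833 for the last). Set 1 held 4 samples, too few for a correlation. With genotype removed as well as array set, so that only the scatter inside each genotype and set was left, r was 0.955 for Dclk1 and Alox5ap, 0.893 for Dclk1 and Hpgds and 0.925 for Alox5ap and Hpgds. Their adjusted exact permutation p-values were then 0.0347, 0.0347 and 0.0463, and 3 of 10 pairs passed. Permutation was here within genotype and set, with only 144 arrangements. The unadjusted exact permutation p of both Dclk1 pairs, 0.00694, was the smallest these can give. In set 1 each genotype had 2 samples, so their residuals were mirror images and not independent. When arrays were scaled by their medians in place of quantile normalisation, r was 0.574, 0.213 and 0.668 for the 3 pairs and 0 of 10 passed.

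**Figure D3:**
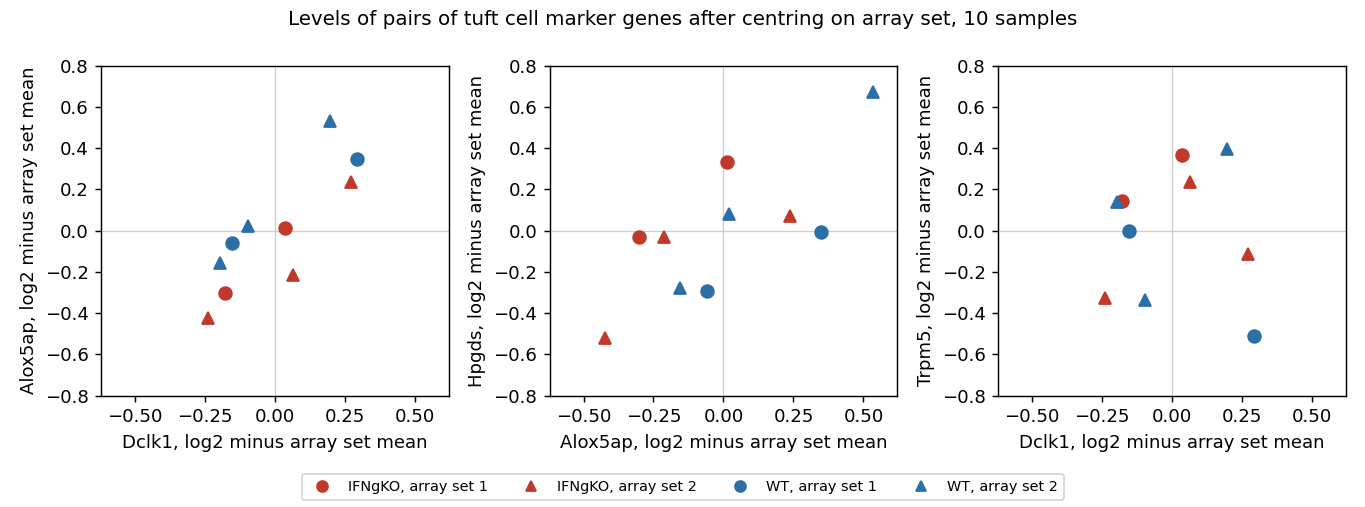
Levels of 3 pairs of tuft cell marker genes in the 10 samples, each as log2 minus the mean of its array set, with IFNgKO in red and WT in blue, circles for set 1 and triangles for set 2. The r was 0.831 for Dclk1 and Alox5ap, 0.749 for Alox5ap and Hpgds, where WT_644 lies at the upper right and IFNgKO_648 at the lower left, and -0.03 for Dclk1 and Trpm5, where WT_641 lies at the lower right.

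The mean of the 5 centred genes ran from -0.31 in IFNgKO_648 to 0.41 in WT_644. Among the other measured genes, those whose pattern over the 10 samples was most like this mean were Tom1l2 (r = 0.898, rho = 0.927), H2-DMa (r = 0.895, rho = 0.830), Slc30a9 (r = 0.892, rho = 0.818), Mterf1a (r = 0.890, rho = 0.830) and Fbxl19 (r = 0.871, rho = 0.818). They were picked as the highest of a very large number of values, so these correlations carry no test. Over all genes the median r was 0.01, with 51.2% above 0. None of these 5 is among the tuft cell genes listed here.

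A wider list of 38 genes linked to tuft cells had 35 on the array and 21 measured. Of the 21, 0 passed the adjusted threshold for genotype, 14 had a difference below 0 and 7 above, and the median was -0.15. Over all 8686 measured genes the median was -0.00, and 50.2% lay below 0. Under median scaling, where the median of all genes was 0.18, 10 of the 21 lay below 0. An unadjusted p under 0.05 was reached by 3 of the 21, all lower in IFNgKO. Over all probes 12.2% reached it in either direction, 5.86% higher and 6.38% lower in IFNgKO. Matk, a kinase that opposes Src family kinases, averaged 5.88 ± 0.27 in IFNgKO and 6.38 ± 0.25 in WT (SD, n = 5 each), and its groups did not overlap. Its difference was -0.49 ± 0.14 (SE, adjusted p = 0.263 by limma), but the other measured probe of Matk gave -0.07 (adjusted p = 0.885 by limma). Inpp5d, the lipid phosphatase SHIP, differed by -0.48 ± 0.16 (SE, adjusted p = 0.297 by limma) and was detected on 4 IFNgKO and 5 WT arrays. Tas1r3, a subunit of the sweet and umami taste receptors, differed by -0.44 ± 0.18 (SE, adjusted p = 0.368 by limma). Its signal was near background, since it was detected on only 3 IFNgKO and 4 WT arrays. Trpm4, a cation channel that acts beside Trpm5, averaged 8.74 ± 0.22 in IFNgKO and 9.12 ± 0.45 in WT (SD, n = 5 each), a difference of -0.38 (adjusted p = 0.453 by limma).

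Along the taste cascade the differences, with none past the threshold, were -0.44 for the receptor Tas1r3, -0.00 for the G protein subunit Gng13, -0.27 for the phospholipase Plcb2, -0.27 for the calcium release channel Itpr3 and 0.12 for Trpm5. The receptor for succinate, Sucnr1, differed by -0.20, the acetylcholine synthase Chat by -0.16 and the adaptor Sh2d7 by 0.21. Fitted by set, the wider list had a median of -0.30 in set 1 and -0.02 in set 2, a gap that was not tested. Under median scaling, which moved the median of all genes to 0.18, its median was 0.04. The median was -0.08 in the authors' table, -0.08 without background correction and -0.09 with an offset of 50; with 1 sample left out it ran from -0.18 to -0.06, and it was -0.06 without WT_640 and -0.10 without WT_641. Of its members not measured, Rgs13, Spib, Siglecf and Tas1r1 had probes that were detected on fewer than 5 arrays. The list also holds genes of other epithelial and immune cells, such as Vil1, Krt18, Vav1 and Ptpn6. Which cells the differences of its members came from, those of Matk and Inpp5d among them, was not tested.

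**Figure D4:**
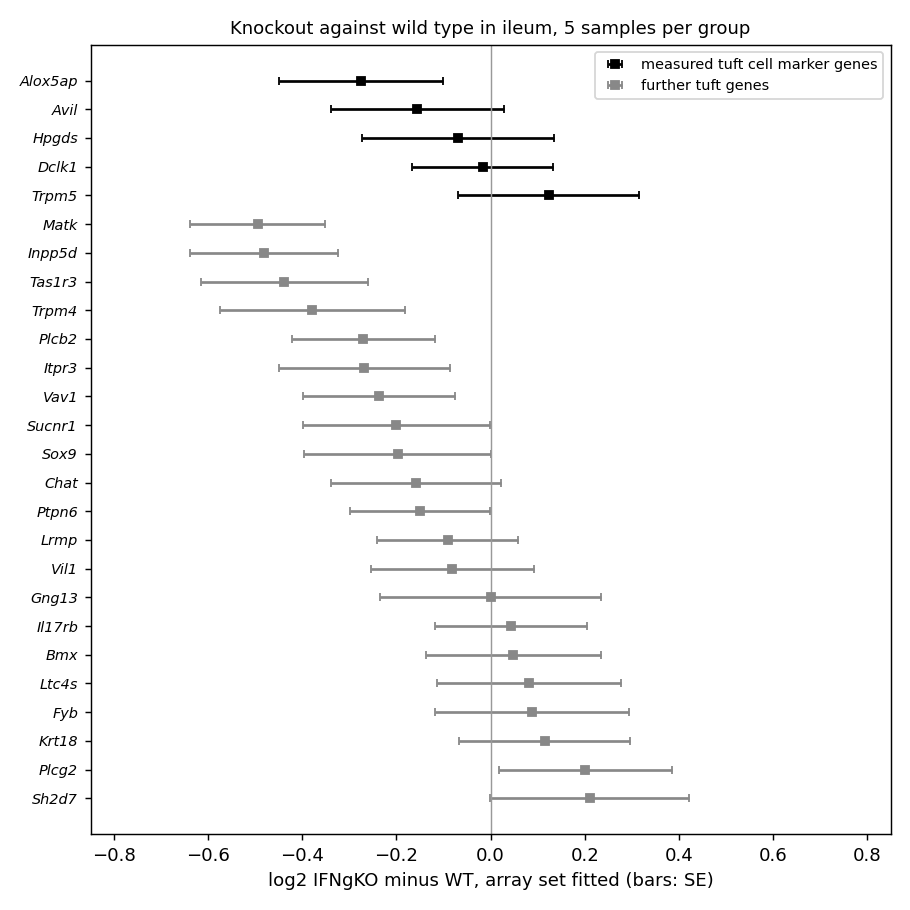
Log2 difference, IFNgKO minus WT with array set fitted, for the 5 measured tuft cell marker genes (black) and the 21 measured genes of the wider list (grey), with bars for the SE (n = 5 each). The black points run from -0.28 (Alox5ap) to 0.12 (Trpm5), and the grey points from -0.49 (Matk) to 0.21 (Sh2d7).

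Of 26 genes that make, carry or sense eicosanoids, the lipid family to which the products of Alox5ap, Ptgs1 and Hpgds belong, 23 were on the array and 10 measured. None of the 10 passed the adjusted threshold; 6 differences were above 0 and 4 below, with a median of 0.06. Ptges, the inducible prostaglandin E synthase, averaged 6.02 ± 0.19 in IFNgKO and 5.55 ± 0.27 in WT (SD, n = 5 each), a difference of 0.47 ± 0.15 (SE, adjusted p = 0.286 by limma). It was detected in 5 of 5 IFNgKO samples and 2 of 5 WT samples, so the IFNgKO samples, where it was higher, carried it past the detection rule. Slco2a1, the prostaglandin transporter, averaged 10.36 ± 0.23 in IFNgKO and 10.79 ± 0.21 in WT (SD, n = 5 each), a difference of -0.43 ± 0.15 (SE, adjusted p = 0.308 by limma). Alox5, the enzyme that Alox5ap serves, was detected on 1 of 10 arrays, and Ltc4s, which makes leukotriene C, differed by 0.08 (adjusted p = 0.888 by limma).

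Of 21 genes of the type 2 circuit that tuft cells start, 18 were on the array and 9 measured, and 0 passed. Their median difference was 0.04. Il13, the cytokine that drives tuft and goblet cell numbers up, averaged 6.10 ± 0.27 in IFNgKO and 6.53 ± 0.25 in WT (SD, n = 5 each), a difference of -0.43 ± 0.16 (SE, unadjusted p = 0.0164, adjusted p = 0.335 by limma). Its groups overlapped. Il33, an epithelial alarmin that acts on the same lymphoid cells as Il25, differed by 0.36 ± 0.21 (SE, adjusted p = 0.525 by limma). Il4 and Il5 were detected on 0 of 10 arrays.

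Several of the marker genes are also made outside tuft cells: Hpgds and Alox5ap by mast cells, Alox5ap by macrophages and neutrophils, Gfi1b by red cell and platelet precursors, and Dclk1 and Avil by neurons. Of 9 mast cell genes on the array 2 were measured, Cpa3 and Hdc, while Mcpt1, Mcpt2 and Tpsb2 were detected on 0 of 10 arrays. The summed linear level of these 2 was 133.8 to 172.9 in IFNgKO and 182.2 to 286.5 in WT. These sums did not overlap, but the groups overlapped for Cpa3 alone and for Hdc alone. Among single probes 1.34% had groups that did not overlap, and no such share was worked out for sums of genes. Cpa3 differed by -0.48 (adjusted p = 0.329 by limma) and Hdc, the histamine-making enzyme, by -0.44 (adjusted p = 0.341 by limma). The Cpa3 probe used was detected on only 2 IFNgKO and 4 WT arrays. Its probes ILMN_2991799 and ILMN_2609590 were detected on 0 of 10 arrays. Of 10 macrophage and neutrophil genes 6 were measured, with sums of 2491 to 3793 in IFNgKO and 1796 to 3108 in WT. Its genes of lowest p were Mrc1, the mannose receptor, with a difference of 0.51 (adjusted p = 0.272 by limma), and C1qb, a complement component, with 0.51 (adjusted p = 0.263 by limma); Itgam was at background. Of 8 neuron and glia genes 3 were measured, with sums of 565.1 to 720.7 in IFNgKO and 532.7 to 1065 in WT, and of 8 platelet and red cell genes 2, with sums of 2355 to 4383 in IFNgKO and 3014 to 11530 in WT; Elavl4, Gfap and Pf4 were at background. The genes of lowest p in these lists were Uchl1 (-0.57, adjusted p = 0.286 by limma) and Prph (-0.09) for neurons, and Gp1bb (-0.35, adjusted p = 0.487 by limma) and the haemoglobin gene Hba-a1 (-0.55) for platelets and red cells. Lists for the other epithelial cells and for smooth muscle also had 0 genes past the adjusted threshold, with medians from -0.10 for Paneth cells to 0.13 for goblet cells. Their genes of lowest p were Gcg (1.06) and Tph1 (0.21) for enteroendocrine cells, Spink4 (0.39) and Spdef (0.16) for goblet cells, Lyz1 (-0.18, with 0.56 and 0.09 from its other 2 measured probes) and Ang4 (-0.21) for Paneth cells, Apoa4 (-1.21) and Sis (0.24) for enterocytes, Olfm4 (0.43) and Ascl2 (-0.29) for stem cells, and Tagln (0.46) and Des (0.21) for smooth muscle, with adjusted p-values of 0.209 to 0.694 by limma for the probes that stand for the genes. The part of these cells in the levels of the tuft cell marker genes was not tested.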

How the data were processed

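Total RNA of 10 ileum samples was labelled with biotin and read on a mouse Illumina bead array, per the labels. The deposited non-normalized table holds a raw intensity and a detection p-value for each of 25697 probes on each array. The authors' value table holds intensities, with array medians of 104.3 to 104.8 against 93.0 to 111.8 in the raw table. It reads as quantile normalised on the linear scale without background subtraction, which was inferred from the values and not tested. Per the submitters' processing notes lumi was used, with no version or role given, and the sources used here name no genome build.

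Raw intensities were background corrected and quantile normalised with neqc of limma 3.58.1 (R 4.3.3; normexp from detection p-values, offset 16, log2). Probes with a detection p-value under 0.05 on at least 5 of 10 arrays, 12039 in all, were fitted on genotype and array set with lmFit and eBayes, and adjusted together. Symbols came from the platform annotation: 23978 probes had 1 symbol, 0 several and 1719 none, and 23962 of the named probes' identifiers were found in the RefSeq gene table. Where a gene had several measured probes, that of the highest mean level stood for it. In array data the number of arrays limits the precision. Correlations used levels centred on array set, with exact permutation within sets, or within genotype and set where genotype was removed as well. The limma fit of genotype was tested on simulated data, and the other statistics were not. The alternatives tried were median scaling, an offset of 50, no background correction, the authors' table, no filter and a stricter one on dim probes, array set left out, as a random block or each alone, array weights, a trended robust fit and leaving out each sample. From the wider list the 4 genes of lowest p were named, and from each other list the 2 of lowest p with markers that define its cells; other names were chosen after their values were seen. The genes and lists were chosen with earlier results of these data known.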

Additional observations from a re-analysis of the deposited data

Results flagged for a closer look

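One value stood apart from the rest of its group among the 24 sets of 5 samples formed by the 12 probes and 2 genotypes. For the Gnat3 probe ILMN_1258192, which was not measured by the detection rule, the log2 level was 5.89 in WT_644 and 4.99 to 5.19 in the other 4 WT samples. WT_644 lay apart by 0.779 of the group's whole range, above the Dixon critical value of 0.71. In raw intensity WT_644 read 111.8, against 99.2 to 108.4 in the other 4. Chance alone gives such a value in about 1 in 20 groups, and the probe was detected on 2 of 10 arrays.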

How the results depend on the processing

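None of the 5 measured tuft cell marker genes passed the adjusted threshold for genotype under any of the 22 alternatives run (21 for Trpm5 and Hpgds, whose probes the stricter filter leaves untested). The number of probes called over the whole array was 2, and it was 10 under median scaling, 5 with an offset of 50, 5 in the authors' table, 4 with a trended robust fit, 1 without the array set term and 0 in set 1 or set 2 alone, where fewer samples were fitted; it was 1 to 3 with 1 sample left out. Median scaling put the median of all probes at 0.19 and gave 8 higher and 2 lower calls, against 0 higher and 2 lower. No paired analysis was possible because the genotypes share no sample numbers.

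Alox5ap stayed below 0 in all 22 alternatives (-0.38 to -0.05). Signs turned for Dclk1 (0.22 under median scaling, 0.066 in set 2 alone, 0.0045 with array weights, -0.094 to 0.071 with 1 sample left out), Avil (0.074 under median scaling, 0.15 in set 2 alone), Trpm5 (-0.14 in set 2 alone, -0.015 to 0.25 with 1 sample left out) and Hpgds (0.30 in set 1 alone, -0.18 to 0.10 with 1 sample left out); the cause was not tested. The alternatives for correlations without 1 sample, and for the median of the wider list, were chosen after seeing the data.

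The number of gene pairs that passed was 3 with genotype and set removed, and 0 to 1 with 1 sample left out (Dclk1 and Alox5ap, r = 0.898, without IFNgKO_647). The correlations near 0 changed sign. That of Dclk1 and Trpm5 was 0.15 with genotype and set removed, 0.45 in set 2 alone, 0.76 without the 2 farthest samples, 0.36 under median scaling and -0.24 to 0.50 with 1 sample left out. That of Trpm5 and Avil was 0.65, 0.75, 0.27 and 0.18 under the same 4 settings and -0.21 to 0.42 with 1 sample left out. That of Hpgds and Avil was 0.71, 0.42, -0.14 and -0.21 under these settings and -0.11 to 0.27 with 1 sample left out, and that of Trpm5 and Alox5ap was -0.40 to 0.45 with 1 sample left out. Of the 5 genes, Hpgds and Trpm5 read closest to the control beads, with highest detection p-values of 0.179 and 0.0489. The part of this in the changes of sign was not tested.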
